A study of Mus musculus and Homo sapiens with 4 samples.

Results

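The complement genes described here are 9 genes expressed to different degrees in mouse embryonic fibroblasts (MEFs): C3, C4b, C1ra, C2, Cfb, Serping1, Cd55, Cd59a and Masp1. They were chosen by gene symbol from 23329 entries of the deposited expression values, and each of the 9 symbols stood on 1 entry. MEFs of wild-type (WT) mice and of NEAT1 knockout (KO) mice, both C57BL/6, had been made from E13.5 embryos and were used at passages 2 to 3. Both were grown in DMEM and HamF12 with serum, and the knockout allele is not described in the sources used here. Each genotype gave 1 library of poly-A RNA, and how many embryos or cultures stood behind a library is not given in the sources used here. NEAT1 is a long non-coding RNA on which nuclear bodies called paraspeckles are built. The series also holds VCaP and VCaP ERα libraries of a human prostate cancer line. Because each genotype had 1 library, the differences below lack replicates and carry no P value.

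Complement is a cascade of blood and tissue proteins that tags foreign or damaged surfaces and lyses cells. It is started by the classical pathway (C1q with the proteases C1r and C1s), by the lectin pathway (lectins with the MASP proteases) or by the alternative pathway (factor B and factor D), and these routes meet at convertases that cleave C3. Regulators such as C1 inhibitor, CD55 and CD59 protect the body's own cells. Liver is the main source of the plasma proteins, but fibroblasts, macrophages and endothelium also make many of them, and interferons and inflammatory cytokines are known to raise several, among them C3, C2, factor B and C1 inhibitor.

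Expression was given as RPKM, a read count scaled by transcript length and by the mapped reads of the library, so levels are per length. The log2 ratio is that of the KO value plus 1 over the WT value plus 1, which understates the difference of genes near or below 1 RPKM. Neat1 had 29.5 RPKM in WT and 2.01 RPKM in KO (log2 ratio -3.34), the direction of the labels. The libraries also differed in sex-linked transcripts: Xist, the RNA of the inactive X chromosome, had 28.6 RPKM in WT and 0.0500 RPKM in KO, and the Y-linked gene Eif2s3y was listed at 0 in WT and had 6.30 RPKM in KO. Genotype and the sex of the embryos therefore cannot be told apart in any value below. All 12 fibroblast markers were present, with Vim at 3151 and 2448 RPKM and Col1a1 at 1477 and 1874 RPKM in WT and KO. Of the 12, 9 were higher in KO and 3, Fn1, Vim and S100a4, were lower. The median log2 ratio of the 12 markers, 0.43, was close to that of the 9 complement genes (0.44). The summed level, mostly that of a few abundant genes, was 6828 RPKM in WT and 6848 RPKM in KO, and Lum (7.98 to 33.0 RPKM), Dcn (19.8 to 64.0 RPKM) and Pdgfra (4.18 to 13.8 RPKM) had log2 ratios above 1. At least 1 RPKM in 1 library or both was reached by 11463 entries, whose median log2 ratio was -0.06. Of these entries 39.2% were higher in KO, and 0.977% of all 23329 entries had a log2 ratio above 1.

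Of the 9 genes, 7 were higher in KO and 2 were lower. C2, Cfb, C3, Serping1, C1ra and Cd55 were between 1.39 and 2.66 times as high in KO as in WT by their plain RPKM ratio, Masp1 and Cd59a were 1.86 and 1.51 times as high in WT as in KO, and C4b was near 0 in both (0.0798 and 0.105 RPKM). With 1 added to each value, 0 of the 9 genes had a log2 ratio above 1, against 0.977% of all 23329 entries, 0 had one above 2 (0.223% of all entries) and 0 had one below -1 (0.334%). These counts are near the shares of all entries, and with 0.1 added 1 of the 9, C2, passed 1 (log2 ratio 1.25), against 2.14% of all entries. With 1 added, entries below 1 RPKM in both libraries, C4b among them, could pass none of these limits. The 228 entries above 1 thus all came from the 11463 that reached 1 RPKM. The 8 genes with at least 1 RPKM comprised 6 that were higher in KO and 2 that were lower. C2, among the 6, reached 1 RPKM in KO only, so this minimum fixed its direction. Among all entries with at least 1 RPKM 39.2% were higher and 60.8% were lower in KO. The median log2 ratio of the 8 genes was 0.47, and that of all 9 was 0.44. The summed level was 73.5 RPKM in WT and 75.5 RPKM in KO, and without Masp1 it was 45.3 and 60.3 RPKM.

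**Figure D1:**
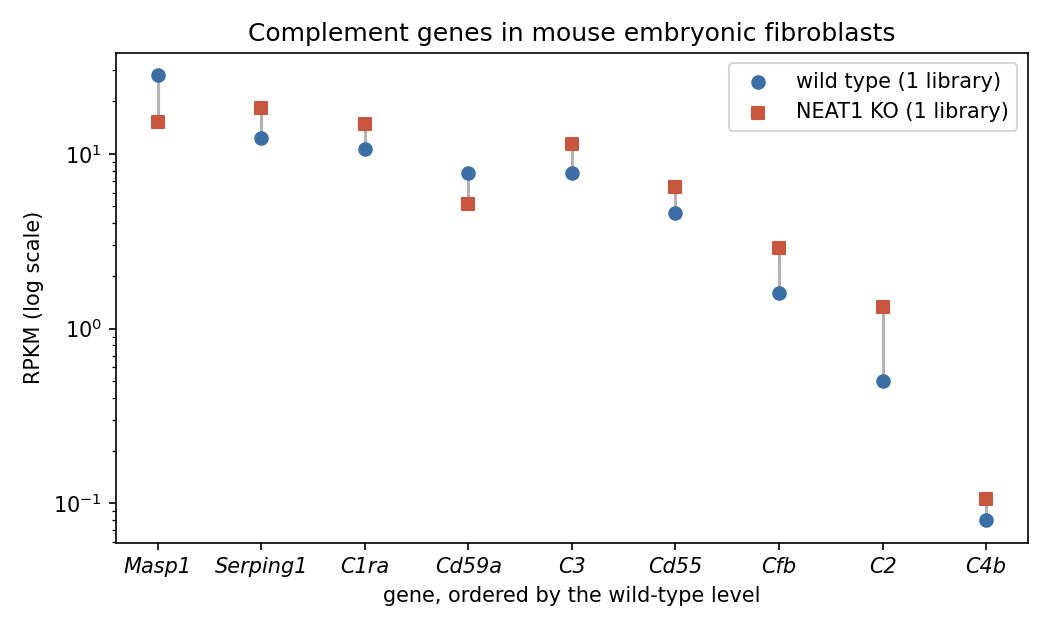
RPKM (log scale) of the 9 complement genes in the WT library (blue circles) and the NEAT1 KO library (red squares), ordered by the WT level, with 1 library per genotype and therefore no error bars. The KO value lies above the WT value for 7 genes and below it for Masp1 (28.1 to 15.2 RPKM) and Cd59a (7.81 to 5.16 RPKM).

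The order of the levels differed between the libraries. In WT it was Masp1 (28.1 RPKM), Serping1 (12.3), C1ra (10.6), Cd59a (7.81), C3 (7.78), Cd55 (4.59), Cfb (1.60), C2 (0.499) and C4b (0.0798 RPKM). In KO Serping1 was highest (18.2 RPKM), followed by Masp1 (15.2), C1ra (14.7), C3 (11.4), Cd55 (6.46), Cd59a (5.16), Cfb (2.89), C2 (1.33) and C4b (0.105 RPKM). Masp1 thus stood above Serping1 in WT and below it in KO, and Cd59a stood above C3 and Cd55 in WT and below both in KO. No spread between replicates exists by which to say that neighbours in these orders differ.

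The depth behind these values could be approximated. In low entries the product of RPKM and transcript length recurred at whole multiples of 15.9 in WT and of 16.8 in KO, most often at 2 steps (358 and 400 entries, against 170 and 185 at 1 step), as it would if 1 step were 1 read and most reads came in pairs. Of the 2307 low products in WT 48.2% lay within 0.1 step of a whole number, as did 51.0% of 2278 in KO, where 20% would by the width of that window alone. The steps correspond to about 62900000 mapped reads in WT and 59500000 in KO. With 2 steps taken as 1 read pair, C4b rested on about 14 pairs in WT and 17 in KO, C2 on 41 and 104, Cfb on 137 and 235, and Masp1 on 4731 and 2408. The 95% intervals given with the ratios below are exact (Clopper-Pearson) intervals from these pairs. They cover counting error only, not differences between cultures, and they rest on transcript lengths of a later annotation.

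**Figure D2:**
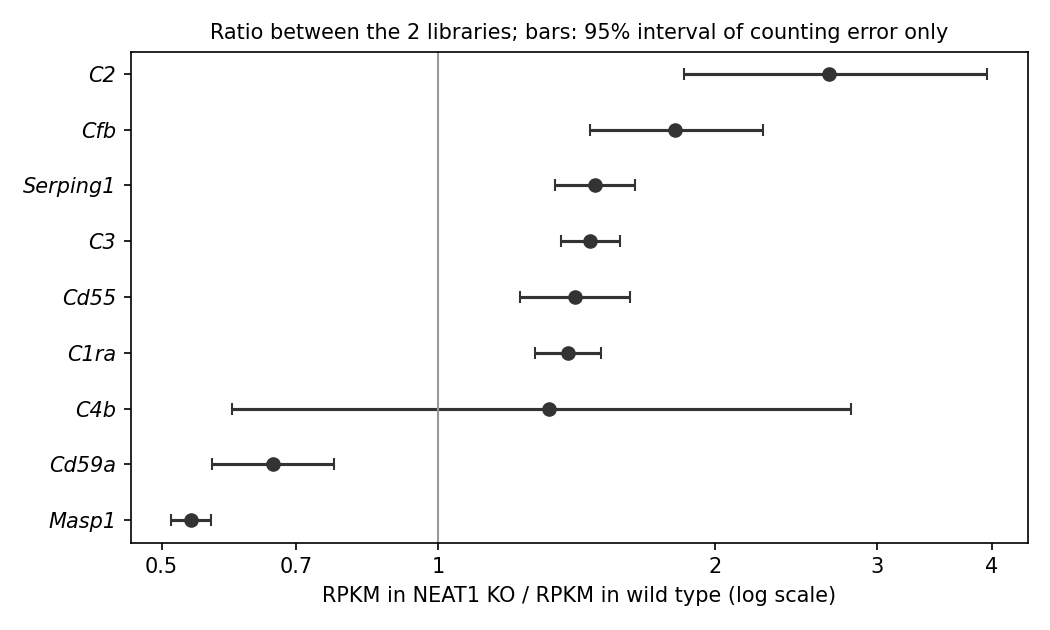
Plain ratio of the RPKM value in NEAT1 KO to that in WT (log scale) for each gene, with bars for the 95% interval of counting error only and a vertical line at equal levels. C2 (2.66), Cfb, Serping1, C3, Cd55 and C1ra lie to the right of the line, Cd59a (0.660) and Masp1 (0.538) to the left, and the interval of C4b crosses it.

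The promoters of C3, C1ra and Cd59a are shown because C3 is the component on which all routes meet and because C1ra and Cd59a, with opposite directions, were the matched genes in which a searched motif was found. RefSeq promoter sequences (GRCm38.p6, 250 bases before to 50 bases after the start of transcription) were matched for 4 of the 9 genes, the other being Cd55. C3 is at chr17:57228087-57228386 on the minus strand, C1ra at chr6:124512371-124512670 on the plus strand and Cd59a at chr2:104095551-104095850 on the plus strand, each written 5′ to 3′. Capitals mark a motif match.
C3: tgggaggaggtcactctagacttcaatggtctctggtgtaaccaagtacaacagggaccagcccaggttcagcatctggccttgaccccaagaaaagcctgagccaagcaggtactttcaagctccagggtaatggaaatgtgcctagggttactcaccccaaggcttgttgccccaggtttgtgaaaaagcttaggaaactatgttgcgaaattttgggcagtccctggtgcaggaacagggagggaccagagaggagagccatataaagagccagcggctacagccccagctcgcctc
C1ra: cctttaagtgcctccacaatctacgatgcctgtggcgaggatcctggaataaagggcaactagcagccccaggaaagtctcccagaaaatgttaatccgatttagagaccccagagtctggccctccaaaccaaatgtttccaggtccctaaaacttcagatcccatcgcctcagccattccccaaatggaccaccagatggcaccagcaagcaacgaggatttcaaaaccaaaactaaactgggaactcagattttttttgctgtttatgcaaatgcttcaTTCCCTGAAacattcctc
Cd59a: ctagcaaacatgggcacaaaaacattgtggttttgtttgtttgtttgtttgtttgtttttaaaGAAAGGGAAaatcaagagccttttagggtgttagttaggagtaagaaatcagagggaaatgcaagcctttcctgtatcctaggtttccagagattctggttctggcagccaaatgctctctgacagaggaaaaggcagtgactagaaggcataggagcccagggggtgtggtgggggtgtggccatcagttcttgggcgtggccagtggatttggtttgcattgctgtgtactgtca
Searched on both strands were the core of the interferon-stimulated response element (GAAANNGAA), a STAT site (TTCNNNGAA) and a C/EBP site (TTGCNNCAA), and no match overlapped another. The C1ra match is to the STAT site and starts at position 33 after the start of transcription, and the Cd59a match is to the response element core and starts at position -187. The response element core stood in 8.56% of all 32851 RefSeq promoters, the STAT site in 8.30% and the C/EBP site in 2.08%. The promoters of C3 and Cd55 held none of the 3 in these windows. A match is a description of letters and not a binding site.

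The classical pathway starts with C1q, which binds antibody or surfaces and carries the proteases C1r and C1s. C1ra, which encodes C1r (chromosome 6, 124512621 to 124523440, mm10), had 10.6 RPKM in WT and 14.7 RPKM in KO. The plain ratio was 1.39 (interval 1.27 to 1.50), and the log2 ratio of 0.44 was above that of 93.3% of the entries with at least 1 RPKM. Its paralog C1rb, with which it could share reads, had 0.0688 and 0.0770 RPKM. C1s, the gene of the protease that C1r activates and a near neighbour of C1ra, had 11.0 RPKM in WT and 13.4 RPKM in KO (log2 ratio 0.26). C1ra and C1s thus stood at similar levels in each library and were both higher in KO. The C1q chains were low and close between libraries: C1qa had 0.935 and 0.892 RPKM, C1qb 1.51 and 1.73 RPKM and C1qc 1.03 and 1.10 RPKM. The counting intervals of all 3 C1q ratios included equal levels.

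C4 and C2 form the classical and lectin C3 convertase once cleaved by C1s or a MASP. C4b, which encodes C4 (chromosome 17, 34728381 to 34743897), had 0.0798 RPKM in WT and 0.105 RPKM in KO. The log2 ratio was 0.03, and the plain ratio of 1.32 had a counting interval of 0.596 to 2.81, so a difference was not detectable at this depth. C4a, its paralog in tandem, which encodes the sex-limited protein, had 0.0502 and 0.0416 RPKM, and reads can be divided between these near-identical genes. C2, the protease part of the convertase (chromosome 17, 34862602 to 34882100), had 0.499 RPKM in WT and 1.33 RPKM in KO. Its log2 ratio of 0.64 ranked 498 from the top among all entries and was the highest of the 9 genes. Because C2 lay below 1 RPKM in WT the added 1 weighs on this value: the plain ratio was 2.66 (interval 1.85 to 3.95), and with 0.1 added in place of 1 the log2 ratio was 1.25.

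C3 is cleaved by the C3 convertases of all routes and marks surfaces by covalent attachment. It had 7.78 RPKM in WT and 11.4 RPKM in KO (chromosome 17, 57203973 to 57228136). The plain ratio was 1.46 (interval 1.36 to 1.58), and the log2 ratio of 0.50 was above that of 94.3% of the entries with at least 1 RPKM. Cfb encodes factor B, the protease of the alternative convertase and a relative of C2 (chromosome 17, 34856374 to 34862514). With 1.60 RPKM in WT against 2.89 RPKM in KO, it had a log2 ratio of 0.58 and a plain ratio of 1.81 (interval 1.46 to 2.26). Cfd, which encodes factor D that cleaves factor B, was listed at 0 in both libraries. Cfp, the gene of properdin that stabilises the alternative convertase, had 1.80 and 2.33 RPKM (log2 ratio 0.25). The counting interval of its plain ratio, 0.968 to 1.71, included equal levels. All 4 genes of the convertase and alternative pathway list that reached 1 RPKM, C2, C3, Cfb and Cfp, were thus higher in KO. Of all entries with that level 39.2% were higher in KO. C2 reached 1 RPKM in KO only, so this minimum fixed its direction.

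C2, Cfb and C4b are neighbours in the class III region of the mouse major histocompatibility complex and are read from the same strand. From the start of C4b to the end of C2 the region spans 153720 bases, and 87 bases separate the entries of Cfb and C2. Of the 14 entries from Tnxb to Neu1, 10 are no complement genes and 7 of these reached 1 RPKM. Their log2 ratios ran from -0.28 (Stk19) to 0.18 (Skiv2l), with a median of 0.01. Rdbp, the entry next to Cfb, had 19.5 and 20.4 RPKM, and Zbtb12, the entry beyond C2, had 6.19 and 5.48 RPKM. The log2 ratios of Cfb and C2 both lay above those of their expressed neighbours. Because these entries adjoin on 1 strand, reads that run from C2 into Cfb could not be told from reads of either gene. The Rdbp entry, at a higher level than Cfb, ends at 34856372 and the Cfb entry starts at 34856374. Reads that run on from Rdbp could therefore fall in Cfb as well.

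**Figure D3:**
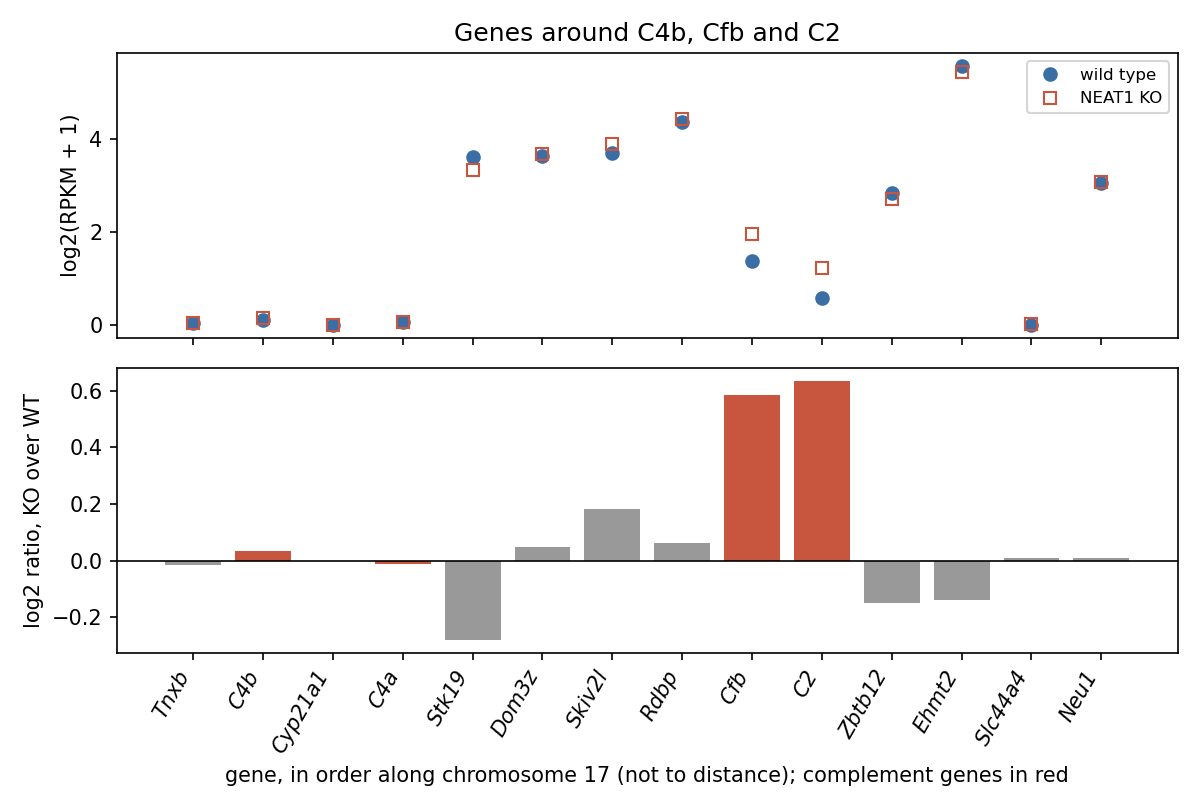
Upper panel, log2(RPKM + 1) in WT (blue circles) and NEAT1 KO (red squares) for the 14 genes from Tnxb to Neu1 in their order along chromosome 17, not to distance. Lower panel, log2 ratio of KO over WT with complement genes in red: Cfb (0.58) and C2 (0.64) stand above the neighbours, which lie between -0.28 and 0.18.

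The lectin pathway is started by mannose-binding lectin, ficolins and collectins, which carry the MASP proteases. Masp1 (chromosome 16, 23451785 to 23520590) encodes MASP-1 and, by alternative splicing, the protease MASP-3, which activates factor D, and its single entry does not separate them. It had 28.1 RPKM in WT and 15.2 RPKM in KO. This was the largest difference of the 9 genes in RPKM and the lowest log2 ratio among them (-0.85), with a plain ratio of 0.538 (interval 0.512 to 0.566). The log2 ratio ranked 159 from the bottom among all 23329 entries. Masp2, which encodes the protease that cleaves C4 and C2, was lower in KO as well, with 1.73 and 1.09 RPKM (log2 ratio -0.39). The recognition molecules were near 0: Mbl1, Mbl2 and Fcnb were listed at 0 in both libraries, and the highest of Fcna, Colec10 and Colec11 was Colec11 with 0.0910 and 0.122 RPKM.

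Serping1 encodes C1 inhibitor, a serpin that inactivates C1r, C1s and the MASP proteases (chromosome 2, 84765360 to 84775429). With 12.3 RPKM in WT against 18.2 RPKM in KO, it had a log2 ratio of 0.53 and a plain ratio of 1.48 (interval 1.34 to 1.64). Of the other soluble regulators only Clu reached 1 RPKM. Clu encodes clusterin, which binds terminal complexes, and had 21.9 RPKM in WT and 12.0 RPKM in KO (log2 ratio -0.82). Serping1 and Clu thus differed in opposite directions.

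The membrane regulators also went both ways. Cd55 encodes decay-accelerating factor, which takes apart convertases on the cell's own surface (chromosome 1, 130439030 to 130462740). With 4.59 RPKM in WT against 6.46 RPKM in KO, it had a log2 ratio of 0.42 and a plain ratio of 1.41 (interval 1.23 to 1.62). Daf2, its paralog, was listed at 0 in both libraries. Cd59a encodes CD59, which blocks assembly of the membrane attack complex (chromosome 2, 104095801 to 104115351). With 7.81 RPKM in WT against 5.16 RPKM in KO, it had a log2 ratio of -0.52 and a plain ratio of 0.660 (interval 0.567 to 0.770). The log2 ratio was above that of 6.69% of the entries with at least 1 RPKM. Its paralog Cd59b had 0.218 and 0.0847 RPKM. Cr1l, which encodes the rodent convertase regulator Crry, was the most abundant membrane regulator in both libraries with 14.0 and 15.6 RPKM (log2 ratio 0.15), and Cd46 had 0.0645 and 0.0409 RPKM.

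Across the wider pathway 53 genes of lists arranged by role were measured, 44 of them besides the 9 genes. Of these 44, 14 were listed at 0 in both libraries and 9 reached 1 RPKM. Of these expressed ones 7 were higher in KO and 2, Clu and Masp2, were lower. Among all entries with at least 1 RPKM 39.2% were higher and 60.8% were lower in KO. The counting intervals of C1qb, C1qc and Cfp, which belong to the 7, included equal levels. Among the 7, C5ar1 and Itgb2 reached 1 RPKM in KO only, so this minimum fixed their direction, and they enter the median below. As for the 9 genes, 0 of the 44 had a log2 ratio above 1 and 0 had one below -1, against 0.977% and 0.334% of all entries. With 1 added, a gene below 1 RPKM in both libraries could pass neither limit, so only the 9 expressed ones of the 44 could have. The median log2 ratio of these 9 expressed ones was 0.15. The terminal components, which form the membrane attack complex, were absent or nearly so: C7, C8a, C8b and C9 were listed at 0 in both libraries and the highest of the 7 genes, C8g, had 0.137 and 0.122 RPKM. Among the receptors C5ar1, the C5a receptor, had 0.428 and 1.07 RPKM (log2 ratio 0.54) and Itgb2, the shared chain of the leukocyte integrins, had 0.421 and 1.01 RPKM (log2 ratio 0.50).

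**Figure D4:**
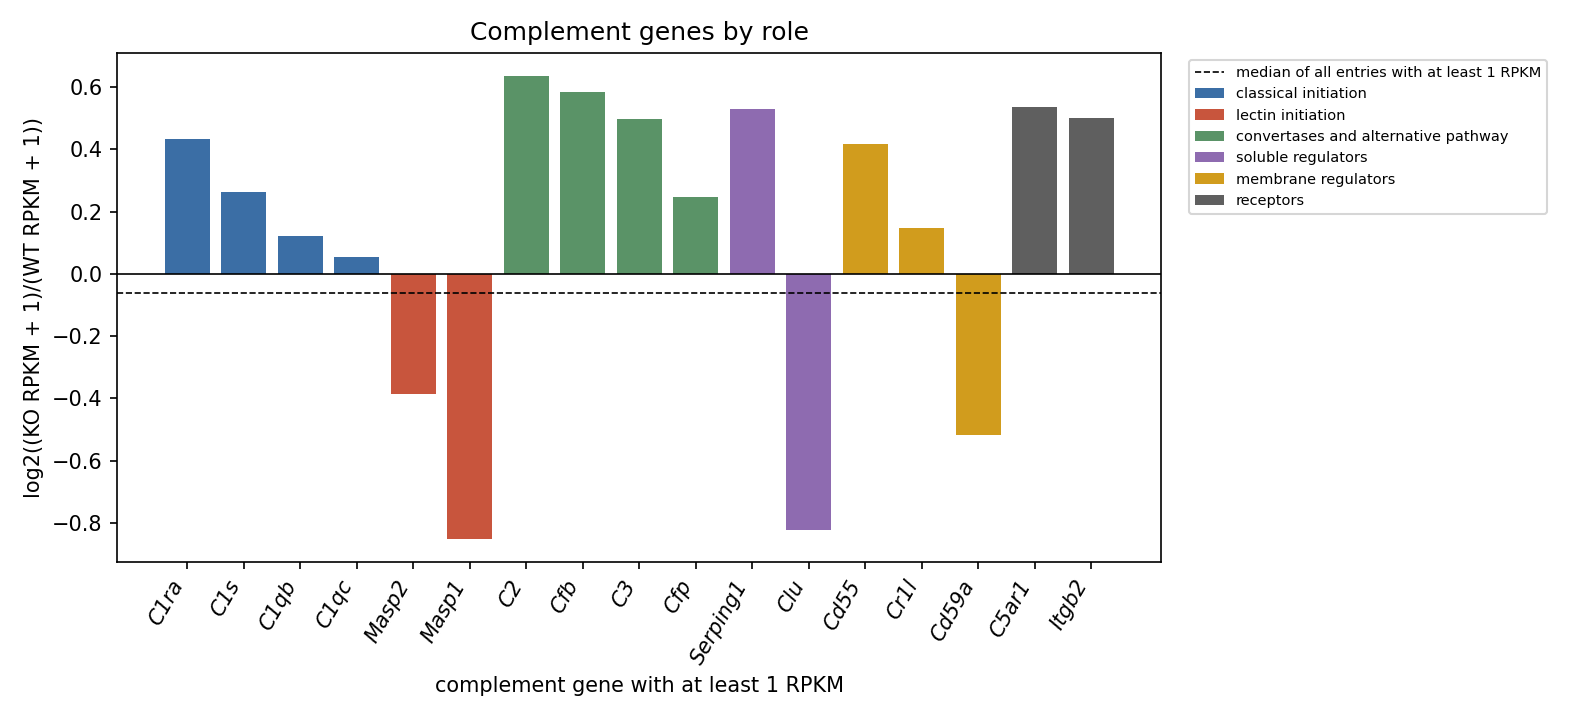
Log2 ratio of KO over WT for the 17 complement genes with at least 1 RPKM in 1 library or both, coloured by role, with a dashed line at the median of all entries with that level (-0.06). Bars of the classical initiation, convertase and receptor genes point up, both lectin proteases point down, and each group of regulators holds bars in both directions. C2 and both receptor genes, C5ar1 and Itgb2, reached 1 RPKM in KO only, so their bars could only point up.

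Of the lists for other cell types, that of macrophages had all of its 11 measured markers higher in KO. Their summed level was 22.4 RPKM in WT and 54.8 RPKM in KO, with none at 0. Of the 11, 6 reached 1 RPKM, some of them, such as Emr1, in KO only. Among all entries with that level 39.2% were higher in KO. Mrc1 was nearly equal, with 0.0804 and 0.0817 RPKM. The C1q chains given above were also close between the libraries. Lyz2 had 13.9 and 34.7 RPKM, Cd68 2.79 and 7.26 RPKM and Emr1 0.482 and 1.37 RPKM, whereas the leukocyte gene Ptprc had 0.0449 and 0.0813 RPKM. Their part in the higher C3, C2, Cfb, C5ar1 and Itgb2 values was not tested, and more cells of a type cannot be told apart from more RNA per cell in such cultures. Hepatocyte markers were low, with Alb, Ttr, Fga, Fgg, Serpina1a and Hnf4a listed at 0 in both libraries. The 12 genes summed to 1.81 and 1.99 RPKM, mostly from Trf (0.811 and 1.54 RPKM) and Apoa2 (0.927 and 0.386 RPKM). The 8 endothelial markers summed to 1.38 and 0.824 RPKM. The 7 epithelial markers summed to 25.7 and 26.6 RPKM, nearly all of it Krt19, with Cdh1 and Esrp1 at 0.

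The higher complement genes stood beside larger differences in genes of interferon and inflammatory responses. All 18 genes of an interferon list were higher in KO, 15 with a log2 ratio above 1, and the median was 2.19. Over all entries 0.977% passed 1, and 39.2% of those with at least 1 RPKM were higher in KO. The most abundant in KO were B2m (527 to 729 RPKM), Isg15 (20.8 to 319 RPKM), Usp18 (5.85 to 88.0 RPKM) and Irf7 (5.24 to 58.1 RPKM). Of 14 acute phase and inflammatory genes 12 were higher in KO and 9 had a log2 ratio above 1, with a median of 1.34. The most abundant in KO were Saa3 (256 to 654 RPKM), Ccl2 (37.5 to 442 RPKM), Lcn2 (141 to 276 RPKM) and Ptx3 (41.0 to 176 RPKM). The log2 ratios of C2, Cfb, Serping1, C3, C1ra and Cd55, from 0.42 to 0.64, were below the median of either list. Whether these responses have a part in the complement values was not tested.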

How the data were processed

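RNA of 2 MEF libraries, 1 of each genotype, and of 2 VCaP libraries was used. The authors deposited RPKM values, 1 per RefSeq entry for the MEFs (mm10, CASAVA 1.8 per the submitters' processing notes). The aligner and counting rule are not given in the sources used here. Starts in the MEF files count from 0, since adding 1 matched RefSeq in 11541 of 20735 entries against 695 without it, and coordinates are printed from 1. Each log2 ratio used a pseudocount of 1, no entry was filtered out, and 1 library per group allowed no test. Read pairs were approximated from low RPKM values (product with length below 250) and GENCODE M21 transcript lengths, taking the longest per entry. The 9 genes and all lists were chosen with earlier results of these data known, and the rule for named genes took the 9, complement genes with at least 1 RPKM, neighbours of C2, Cfb and C4b, markers and orthologues. Complement genes below 1 RPKM in both libraries were named outside it, to give their low levels. A further gene of the lists is not reported here. The scripts were tested on simulated data. Python 3.11.15, numpy 2.4.6, pandas 2.3.3, scipy 1.17.1 and matplotlib 3.10.9 were used.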

Additional observations from a re-analysis of the deposited data

How the results depend on the processing

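Tried in turn were adding 0.1 in place of 1, keeping entries that reached 1 RPKM somewhere, subtracting the median log2 ratio of the entries expressed in both MEF libraries, quantile normalization, summing entries that share a symbol, and, chosen after seeing the data, adding 0. The direction of a gene could change only under the median and quantile scalings, and there all 9 genes kept theirs. C4b was left out by the minimum. The median log2 ratio of the genes stayed between 0.44 and 0.49. When 0.1 was added, 1 of the 9 genes (C2) had a log2 ratio above 1, and over the listed complement genes 4 were above 1 (C2, C5ar1, Itgam and Itgb2), while the share of all entries above 1 went from 0.977% to 2.14%, because a smaller constant weighs less on low values. The log2 ratio of C2 was 1.25 with 0.1 and 1.41 with 0. A log2 ratio was taken as unchanged within 0.58. This is wider than most of the 9 log2 ratios, so unchanged in that sense does not show that a difference remained. Summing entries could change nothing, because each symbol stood on 1 entry. No paired analysis was possible because each genotype has 1 library, and for the same reason no replicate could be left out. Counting error limits C4b, the C1q chains, Cfp and other listed genes with few read pairs.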

Other observations

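The human orthologues of the 9 genes were read in the VCaP and VCaP ERα libraries, which were made after removal of ribosomal RNA and cannot be set against the MEF levels. In the library labelled VCaP the prostate genes KLK2 and KLK3 had 0.0264 and 0.176 RPKM, against 452 and 19.8 RPKM in VCaP ERα, whereas ESR1, the gene of ERα, had 15.7 and 209 RPKM in the same order, the direction of the labels. The values are therefore given side by side only. CD59 was the most abundant orthologue in both, with 58.1 RPKM against 9.79 RPKM in VCaP ERα, followed in VCaP by CD55 with 16.3 RPKM (0.650 RPKM in VCaP ERα). C3 had 7.50 and 0.175 RPKM, and CFB 3.65 and 0.712 RPKM. In the other direction C1R had 0.532 and 2.04 RPKM in the same order of libraries, C2 0.151 and 0.467 RPKM, SERPING1 0.0967 and 0.435 RPKM, and MASP1 0.0590 and 0.619 RPKM. The entries that carry C4A and C4B were listed at 0 in VCaP and had at most 0.0862 RPKM in VCaP ERα.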
